A study of Mus musculus with 8 samples.

Results

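Mitochondrial ribosomal proteins are encoded in the nucleus, made in the cytosol and imported into mitochondria, where they assemble with mitochondrial rRNA into the ribosome that translates the mitochondrial genome. All products of that ribosome are inner-membrane subunits of the respiratory chain and ATP synthase, on which the heart depends. Defects of several of these proteins cause cardiomyopathy in humans. The genes were taken as those whose symbol begins with Mrpl or Mrps followed by a number, pseudogene symbols left out, which gave 78 of the 15358 genes listed, 49 with an Mrpl symbol and 29 with an Mrps symbol. All 78 passed the filter on low counts, and the lowest count of any of them in any library was 455.

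RNA was taken from the whole ventricle of mouse hearts at day 14.5 of gestation. In the conditional knockout (cKO) embryos both Lem2 alleles were floxed (f/f) and a Cre transgene labelled XMLC2V was present, and 4 cKO libraries were analysed. Lem2, listed under the symbol Lemd2, is a protein of the inner nuclear membrane. The control embryos were littermates with the same floxed alleles and are not labelled as carrying the transgene, and 3 of their libraries were analysed. The labels do not say which promoter the name XMLC2V stands for, which cells it targets, or whether the libraries came from separate litters, so the p-values below measure the spread between these libraries. RNA of the whole ventricle also holds cells in which the transgene may not act, and in such bulk samples fewer cells of a type and less RNA per cell cannot be told apart.

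Library totals ran from 28921922 to 37967877 counts in cKO and from 34667532 to 39351262 in control. Lemd2 averaged 16.4 ± 2.01 CPM in cKO and 35.9 ± 1.28 CPM in control ventricle (TMM-scaled counts relative to library size, SD, n = 4 and 3), and every cKO library lay below every control (exact two-sided permutation p = 0.0286, the smallest that 35 arrangements allow). The ventricular cardiomyocyte markers fixed for this check (8 of 8 measured, among them Myl2 and Myh7) summed to 21920 to 27170 CPM in cKO and 25850 to 27840 CPM in control. Of the 8, 0 passed the threshold given below, but all except Actn2 had a negative log2 fold change, with a median of -0.09. Irx4 was the only 1 whose groups did not overlap (log2 -0.25, adjusted p = 0.105 by edgeR). The groups also differed in sex: Xist, the RNA of the inactive X chromosome, lay at 1320 and 1100 CPM in cKO replicates 3 and 4 and at most 0.504 CPM in the other 5 libraries. In all, 162 of 14887 genes tested, or 1.09%, differed between cKO and control (quasi-likelihood test in edgeR, threshold 0.05 after Benjamini-Hochberg adjustment over all genes).

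The mitochondrial ribosome has a small subunit, which reads the mRNA, and a large subunit, which forms peptide bonds and holds the exit tunnel. Of the 78 genes, 51 encode large-subunit proteins and 26 small-subunit proteins. Symbols and subunits do not match throughout, since Mrps30 and Mrps18a encode proteins that sit in the large subunit. Mrps36 kept its symbol but encodes a component of the 2-oxoglutarate dehydrogenase complex, and is counted in neither subunit. By the unified names of their proteins, 46 of the genes are classed as homologues of bacterial ribosomal proteins and 31 as specific to mitochondrial ribosomes. These classes are not a measure of descent, since the related Mrps18a and Mrps18b fall in the second and Mrps18c in the first. The genes are spread over 17 chromosomes, with 11 on chromosome 11 and 8 on chromosome 17.

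The promoters of these genes are known to share sites for a few factors of housekeeping and mitochondrial genes, above all NRF1, the ETS factor GABP, and YY1. RefSeq promoter windows (GRCm38.p6, from 250 bases before to 50 after the start site) were matched for 68 of the 78 genes. Both strands were searched for GCGCA and GCGC with any 1 base between them as the NRF1 core, CCGGAAG as the GABP or ETS core, and AAGATGGCG as the YY1 core. The NRF1 letters were in 13 of the 68 windows (19.1%) and in 9.73% of 11566 windows of all listed genes. The ETS letters were in 24 of 68 (35.3%), against 16.7% of all windows, and the YY1 letters in 8 of 68 (11.8%), against 2.84%. At least 1 of the 3 was in 39 of 68 (57.4%), against 26.4% of all windows. These are matches to letters and not measured binding. The 120 bases before the start site are shown for 8 genes that between them carry each of the 3 motifs, 5' to 3' on the gene's strand, with matches in capitals. Mrpl12 (chr11:120484517-120484636, plus strand), Mrpl30 (chr1:37890357-37890476, plus), Mrpl9 (chr3:94443216-94443335, plus) and Mrpl45 (chr11:97315596-97315715, plus) hold the NRF1 core.
Mrpl12: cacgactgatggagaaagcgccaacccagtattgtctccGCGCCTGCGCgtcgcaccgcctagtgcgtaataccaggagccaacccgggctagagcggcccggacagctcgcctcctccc
Mrpl30: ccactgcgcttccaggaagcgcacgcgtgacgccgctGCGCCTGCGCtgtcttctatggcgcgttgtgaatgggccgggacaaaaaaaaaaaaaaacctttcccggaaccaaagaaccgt
Mrpl9: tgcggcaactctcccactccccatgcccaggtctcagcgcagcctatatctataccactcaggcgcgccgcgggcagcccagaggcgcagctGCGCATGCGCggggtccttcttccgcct
Mrpl45: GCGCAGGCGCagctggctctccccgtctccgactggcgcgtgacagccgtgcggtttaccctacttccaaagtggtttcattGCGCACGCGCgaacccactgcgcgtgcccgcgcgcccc
Mrpl53 (chr6:83108988-83109107, plus) and Mrpl43 (chr19:45006443-45006562, minus) each hold the ETS core at 2 places.
Mrpl53: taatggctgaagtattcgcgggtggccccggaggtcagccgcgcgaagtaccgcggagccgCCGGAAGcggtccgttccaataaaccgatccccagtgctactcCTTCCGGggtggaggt
Mrpl43: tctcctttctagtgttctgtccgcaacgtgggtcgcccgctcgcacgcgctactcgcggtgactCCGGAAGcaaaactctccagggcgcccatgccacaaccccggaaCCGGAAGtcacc
Mrpl36 (chr13:73330889-73331008, plus) and Mrps11 (chr7:78783011-78783130, plus) hold the YY1 core.
Mrpl36: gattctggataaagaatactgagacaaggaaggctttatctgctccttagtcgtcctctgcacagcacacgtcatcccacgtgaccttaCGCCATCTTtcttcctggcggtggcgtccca
Mrps11: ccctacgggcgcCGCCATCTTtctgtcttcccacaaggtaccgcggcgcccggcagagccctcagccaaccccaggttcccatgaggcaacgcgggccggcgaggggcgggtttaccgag

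Many of the genes start close to a neighbour on the other strand. By the coordinates in the deposited table (mm10), 30 of the 78 (38.5%) had an opposite-strand start within 1000 bases, against 15.0% of all 15358 listed genes, with a median of 138 bases between the starts. Mrps11, of the small subunit, and Mrpl46, of the large subunit, start 41 bases apart and are transcribed away from each other. The neighbours included Ndufb5, a complex I subunit, beside Mrpl47, the mitochondrial seryl-tRNA synthetase gene Sars2 beside Mrps12, and Twnk, the mitochondrial DNA helicase, beside Mrpl43. None of the 30 neighbouring starts belonged to a gene that edgeR called, and their median log2 fold change was -0.01. With 1.09% of all genes called, 0 of 30 tells little. The 30 include Mrps11 and Mrpl46, each as the neighbour of the other.

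Transcripts of mitochondrial ribosomal proteins had similar levels in cKO and control ventricle, with small bounds on the difference in the fit of all 7 libraries. None of the 78 genes was called by edgeR's quasi-likelihood test over all genes, where 1.09% of all genes were called (0.766% higher and 0.322% lower in cKO). The smallest adjusted p was 0.0834, for Mrps14. Before adjustment, 7 members had a p under 0.05 (8.97%, against 17.9% of all genes). Of these, 6 were higher in cKO, where 9.4% of all genes were, and 1 was lower, where 8.5% of all genes were. DESeq2 called 1 of the 78, Mrps14, where it called 4.68% of the 13440 genes to which it gave an adjusted p. With limma-voom 0 were called, where it called 1.09% of all genes.

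In the fit of all 7 libraries the estimates were precise enough to bound the difference between these groups, which also differ in sex. Log2 fold changes ran from -0.14 for Mrpl48 to 0.20 for Mrps14, with a median standard error of 0.0508. The 95% interval of the log2 fold change lay within 0.322 of 0, a ratio 25% above 1 or its inverse, for 76 of the 78 genes, each taken singly. The 2 exceptions were Mrpl48, with a lower bound of -0.40, and Mrpl35, with an upper bound of 0.33. The interval held 0 for 71 genes. The median absolute log2 fold change was 0.0495 over the members and 0.0803 over all genes tested. With Y-linked expression as a term the median standard error was 0.06 and the members' log2 fold changes ran from -0.171 to 0.185. Without control replicate 2 the lowest was -0.277, and among the libraries with F169 in their titles the highest was 0.265. Intervals within the bound were not counted in those fits.

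**Figure D1:**
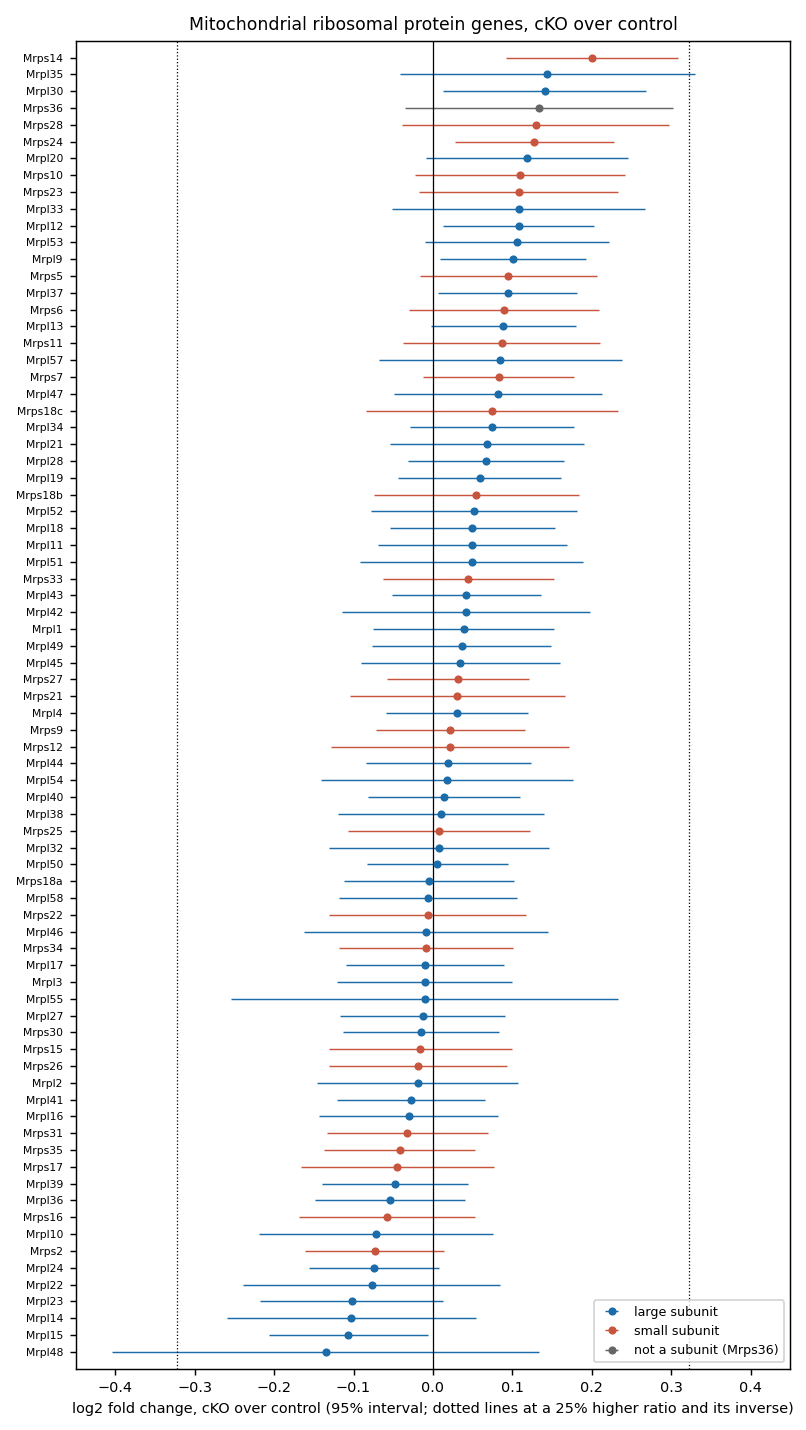
Log2 fold change, cKO over control, of each of the 78 genes (points) with its 95% interval from the edgeR fit (bars), ordered by size and coloured by ribosomal subunit; dotted lines mark a ratio 25% above 1 and its inverse. The points run from -0.14 to 0.20 and 76 of the 78 bars stay between the dotted lines.

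The genes leaned slightly to higher levels in cKO, by less than the spread between libraries. The median log2 fold change was 0.03 over the 78 genes and -0.01 over all genes tested, and 49 of 78 (62.8%) had a positive value, against 47.9% of all genes. The members' median level in a library had a within-group SD of 0.0427 on the log2 scale, larger than that shift. With Y-linked expression as a term the median was -0.001, and without the 2 Xist-expressing cKO libraries it was -0.0008, with 39 of 78 genes positive in each case. Both settings in effect set cKO replicates 1 and 2 against the controls, so they are 1 comparison, and replicate 1 had the lowest median level of the members among the 7 libraries. Sex and that library cannot be told apart here. The median also moved with single libraries. Without cKO replicate 1 or control replicate 1 the median was 0.0576 or 0.0492, and without cKO replicate 3 or control replicate 2 it was 0.0142 or 0.0124, with all other single libraries left out giving 0.0217 to 0.0295.

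**Figure D2:**
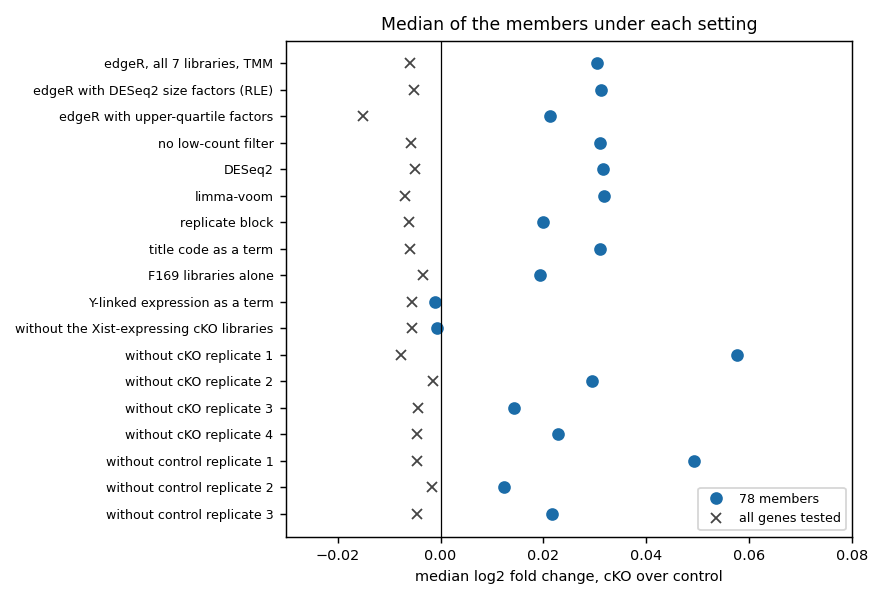
Median log2 fold change, cKO over control, of the 78 genes (circles) and of all genes tested (crosses) under each setting of the analysis. The members' median is 0.0304 with all 7 libraries, lies near 0 in the 2 settings that in effect compare cKO replicates 1 and 2 with the controls, and is highest, at 0.0576, without cKO replicate 1.

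The 2 subunits had similar values; no test of a difference between them was made. Large-subunit genes had a median log2 fold change of 0.02 (31 of 51 positive) and small-subunit genes of 0.03 (17 of 26 positive). Their summed levels were 2103.3 ± 77.2 CPM in cKO and 2064.1 ± 50.9 CPM in control for the large subunit (SD, n = 4 and 3). For the small subunit they were 942.6 ± 27.3 CPM in cKO and 920.7 ± 25.5 CPM in control. The ratio of large- to small-subunit counts was 2.20, 2.24, 2.24 and 2.23 in cKO replicates 1 to 4 and 2.24, 2.25 and 2.24 in control replicates 1 to 3. Bacterial homologues had a median of 0.04 and mitochondria-specific proteins of 0.01. Genes with the NRF1 letters had a median log2 fold change of 0.02 and those without 0.04. The medians with and without were 0.04 and 0.02 for the ETS letters and 0.06 and 0.02 for the YY1 letters.

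Groups that do not overlap were fewer than over all genes. Every cKO library lay above every control for 4 of the 78 genes (5.13%), against 8.67% of all genes, and below every control for 2 (2.56%), against 8.28% of all genes. The 4 were Mrps14, Mrps24, Mrpl30 and Mrpl37, and the 2 were Mrpl15 and Mrpl24.

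Mrps14 (chromosome 1, 160195215 to 160201187, plus strand), a homologue of bacterial S14 in the head of the small subunit, came closest to a call. It lay at 31.9, 31.8, 32.3 and 32.7 CPM in cKO replicates 1 to 4, against 29.9, 27.3 and 26.9 CPM in control replicates 1 to 3. The 4 cKO libraries were within 1 CPM of each other and above the controls, of which replicate 1 was the nearest. Its log2 fold change of 0.20 (SE 0.048) had a 95% interval of 0.09 to 0.31, with an adjusted p of 0.0834 by edgeR and 0.0378 by DESeq2. Its counts were not whole in 5 of the 7 libraries. Over all other settings the log2 fold change was 0.165 to 0.25 and the adjusted p 0.0378 to 0.313. Its promoter window held none of the 3 motifs.

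Mrps24 (chromosome 11, 5703983 to 5707700, minus strand), the small-subunit homologue of bacterial S3, which lies where mRNA enters, had 31.4, 33.5, 33.8 and 33.3 CPM in cKO and 30.9, 30.5 and 29.2 CPM in control. The groups were parted narrowly, between cKO replicate 1 and control replicate 1 (log2 0.13, SE 0.045, adjusted p = 0.185 by edgeR). Mrpl30 (chromosome 1, 37890477 to 37898339, plus strand), a homologue of bacterial L30, had 47.1, 51.6, 53.9 and 46.8 CPM in cKO and 46.3, 46.2 and 43.1 CPM in control. Here cKO replicates 1 and 4 were close to the controls and replicates 2 and 3 stood above them (log2 0.14, SE 0.057, adjusted p = 0.239 by edgeR). Mrpl37 (chromosome 4, 107055874 to 107066867, minus strand), a large-subunit protein without a bacterial counterpart, had 51.7, 53.7, 56.0 and 53.4 CPM in cKO and 51.4, 50.3 and 49.2 CPM in control (log2 0.09, SE 0.039, adjusted p = 0.249 by edgeR).

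Mrpl15 (chromosome 1, 4773200 to 4785727, minus strand), the homologue of bacterial L15, was the gene with the smallest p among those lower in cKO. It had 44.4, 47.6, 47.6 and 47.0 CPM in cKO and 52.9, 49.7 and 48.1 CPM in control. The gap between the groups was narrow, with control replicate 3 just above the highest cKO libraries (log2 -0.11, SE 0.045, adjusted p = 0.253 by edgeR). Mrpl24 (chromosome 3, 87919544 to 87923434, plus strand), the homologue of bacterial L24 near the tunnel exit, had 36.7, 35.5, 37.4 and 36.4 CPM in cKO and 38.3, 38.6 and 38.4 CPM in control. The 3 controls were nearly equal and all above cKO (log2 -0.07, SE 0.037, adjusted p = 0.325 by edgeR). Mrpl24 overlaps Rrnad1 on the other strand and had counts that were not whole in all 7 libraries. Counts were also not whole in 6 libraries for Mrpl30 and in 4 for Mrpl15. What this does to their levels was not tested.

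**Figure D3:**
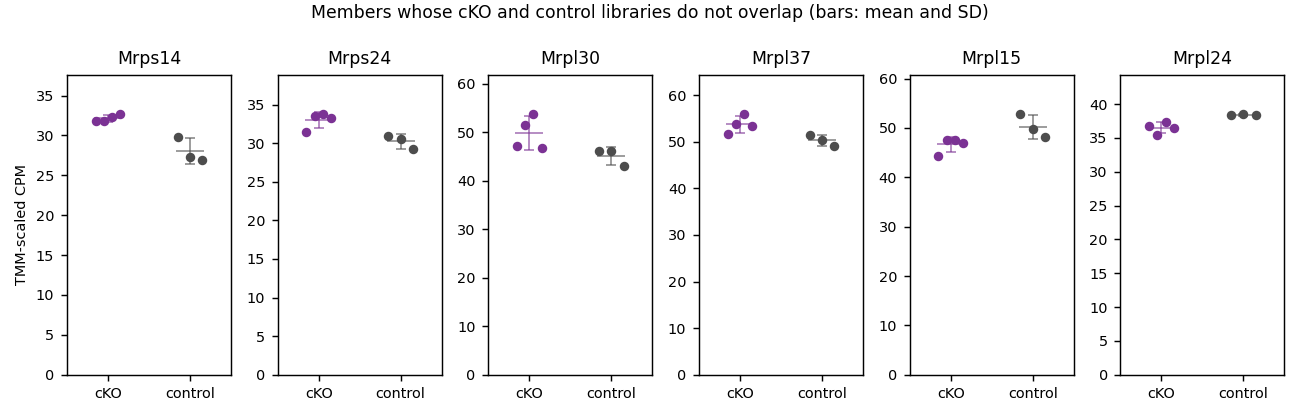
TMM-scaled CPM of the 6 genes whose cKO and control libraries do not overlap, one point per library with the mean and SD of each group, on axes that start at 0. The first 4 genes are higher and the last 2 lower in cKO, by less than 5 CPM between the means, and none was called by edgeR.

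The other genes with an unadjusted p under 0.05 were Mrpl12 and Mrpl9, and in both the groups overlapped. Mrpl12, the stalk protein that recruits translation factors, had 118, 129, 130 and 127 CPM in cKO and 121, 113 and 117 CPM in control. Replicate 1 of cKO lay within the control range and the other 3 above it (log2 0.11, SE 0.042, adjusted p = 0.226 by edgeR). Mrpl9, a homologue of bacterial L9, had 57.4, 60.0, 62.8 and 59.8 CPM in cKO and 54.6, 57.8 and 55.3 CPM in control (log2 0.10, SE 0.041, adjusted p = 0.242). Mrpl13 (0.09) and Mrpl20 (0.12), both large-subunit homologues of bacterial proteins, followed with log2 fold changes of similar size and adjusted p of 0.295 and 0.312 by edgeR.

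The next genes with lower estimates in cKO had 95% intervals that held 0. Mrpl23, the tunnel-exit homologue of bacterial L23, had 20.7, 20.4, 21.3 and 21.5 CPM in cKO and 23.2, 21.2 and 23.2 CPM in control, and only control replicate 2 lay among the cKO libraries (log2 -0.10, SE 0.051). Mrps2, a small-subunit homologue of bacterial S2, averaged 52.5 ± 1.78 CPM in cKO and 55.2 ± 1.22 CPM in control (log2 -0.07, SE 0.039). Mrpl14 (-0.10), Mrpl36 (-0.05), Mrps16 (-0.06) and Mrpl39 (-0.05) were the others of the 8 smallest p in that direction, with adjusted p from 0.483 to 0.584 by edgeR.

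Of the 12 genes chosen for a known role, Mrpl12 is given above and the Mrps18 genes and Mrps36 below, and the other 7 had log2 fold changes within 0.04 of 0. Mrpl3 and Mrpl44, whose human variants cause infantile cardiomyopathy, had log2 fold changes of -0.01 (SE 0.049) and 0.02 (SE 0.046). Mrpl44 averaged 29.1 ± 1.23 CPM in cKO and 28.7 ± 0.227 CPM in control, and the cKO libraries lay on both sides of the controls. Mrps22, also linked to human cardiomyopathy, had -0.01 (SE 0.055), and Mrps34, whose mutation in mice enlarged the heart, had -0.01 (SE 0.049). Mrpl45, which ties the ribosome to the inner membrane, had 0.03 (SE 0.056) and Mrpl58, a hydrolase that frees stalled ribosomes, had -0.01 (SE 0.050). Mrps30 had -0.02 (SE 0.044).

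The Mrps18 genes are a small family in which Mrps18a belongs to the large subunit and Mrps18b and Mrps18c to the small subunit. Mrps18a averaged 27.6 ± 1.14 CPM in cKO and 27.7 ± 0.638 CPM in control. Mrps18b averaged 23.5 ± 0.719 CPM in cKO and 22.6 ± 1.60 CPM in control, and Mrps18c 21.6 ± 1.59 CPM in cKO and 20.5 ± 1.41 CPM in control. None of the 3 differed by more than the spread between libraries. Mrps36, which is not a ribosomal subunit, had 29.8, 31.5, 32.8 and 37.9 CPM in cKO and 30.4, 30.7 and 29.3 CPM in control. Its mean in cKO rested on replicate 4 (log2 0.13, SE 0.075, adjusted p = 0.393 by edgeR).

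Levels differed far more between the genes than between the groups. Per kilobase of transcript (the median protein-coding transcript of GENCODE M21), they ran from 5.46 to 151 CPM per kb in cKO and from 5.53 to 147 in control. The medians were 29.7 and 29.8 CPM per kb in cKO and control. Mrpl42 was highest on this scale (151 in cKO and 147 in control), followed by Mrps21 (102 and 99.8), Mrpl12 (95.8 and 88.9) and Mrpl33 (85.5 and 79.4). Mrps26 was lowest (5.46 in cKO and 5.53 in control), with Mrpl47 (6.49 and 6.14) and Mrpl57 (6.74 and 6.36) next above it in both groups. These 3 genes have long annotated transcripts, at 2877 to 4278 bases, so they depend on which transcript is used in this tissue.

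Libraries differed in the members' level as a group. Together the 78 genes took 0.297, 0.306, 0.315 and 0.310% of all counts in cKO replicates 1 to 4 and 0.310, 0.299 and 0.299% in control replicates 1 to 3. The sums of 3079 ± 107 CPM in cKO and 3014.9 ± 76.4 CPM in control differed by less than 1 SD of either group. Replicate 1 of cKO was the lowest of the 4 cKO libraries in 55 of the 78 genes, against 28.6% of all genes tested. Replicate 2 was the lowest of the 3 controls in 40 of the 78 genes, against 32.4% of all genes tested. Control replicate 1 was the highest of the 3 in 50 of the 78, against 4830 of the 14887 genes tested. The median deviation from the mean of the 7 libraries was -0.05 in cKO replicate 1 and 0.03, 0.05 and 0.04 in cKO replicates 2 to 4. In control replicates 1 to 3 it was 0.02, -0.05 and -0.02.

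**Figure D4:**
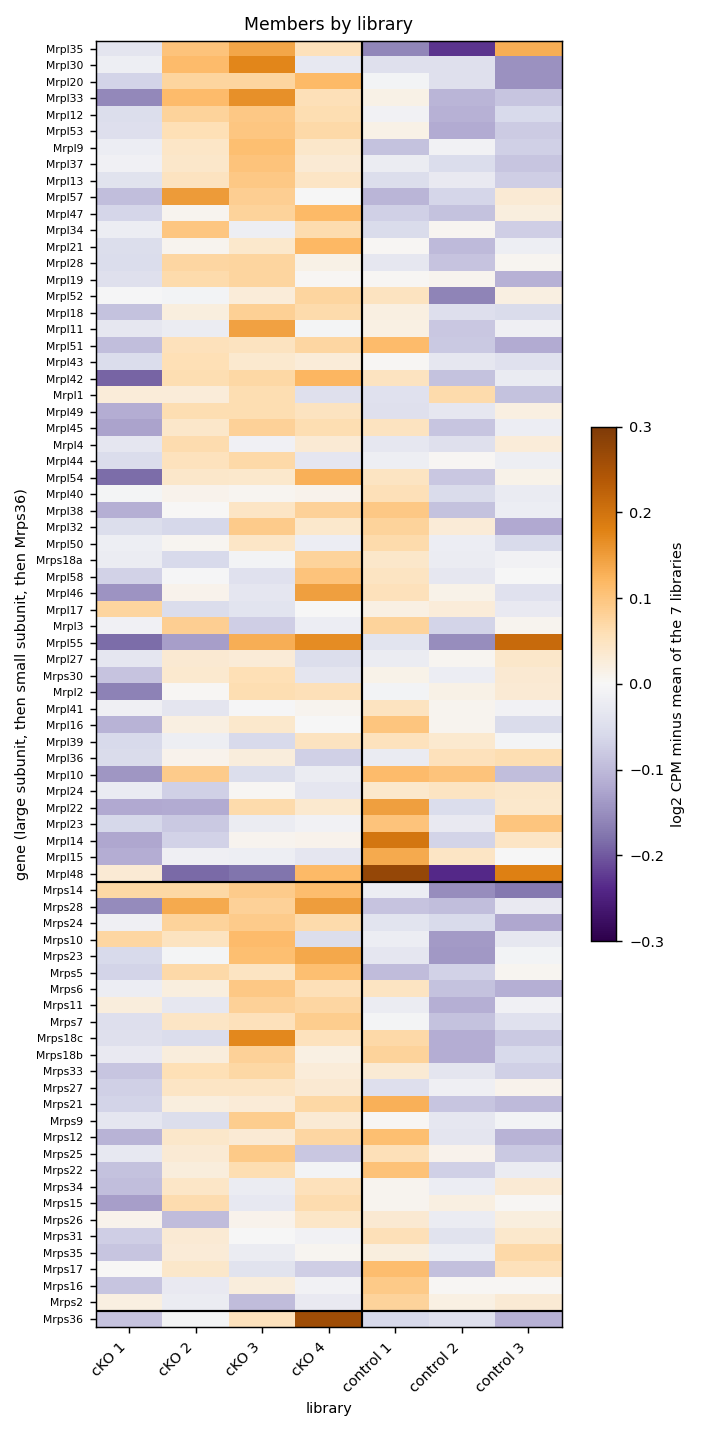
Log2 CPM of each gene minus its mean over the 7 libraries (colour, from -0.3 to 0.3), with cKO libraries left of the vertical line and control libraries right of it, and large-subunit genes above the small-subunit genes. Replicate 1 of cKO and replicate 2 of control are low in most genes, and Mrpl48 and Mrpl55 vary by more than 10% in both groups.

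Within a group the genes tended to move together between libraries. After the group means were taken out, the median correlation over the 3003 pairs of members was 0.41 across the 7 libraries and 80.0% of the pairs were positive. The points share library, depth and scaling, and the value is a description. It was 0.427 among 83 genes with cytosolic ribosomal protein symbols and 0.651 among 82 nuclear-encoded respiratory chain subunits. That last group was taken by symbol, here and below, with ATP synthase symbols included. Mrpl45 had the highest mean correlation with the other members (0.586) and Mrpl17 the lowest (-0.416). The coefficient of variation between libraries was 4.45% in cKO and 3.74% in control at the median over members, against 5.92% and 5.43% over all genes. Mrpl48 (10.6% in cKO and 17.9% in control) and Mrpl55 (12.3% and 13.2%) varied by more than 10% in both groups, Mrps36 in cKO (10.6%, against 2.33% in control) and Mrpl35 in control (13.5%, against 5.19% in cKO). Mrpl48 overlaps Rab6a on the other strand. Counts were not whole in 7 libraries for Mrpl48 and in 5 for Mrpl55.

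The low level in cKO replicate 1 came with low values of other groups in that library. Respiratory chain subunits had a median deviation of -0.09 there and were lowest of the 4 cKO libraries in 74 of 82 genes. The 8 ventricular cardiomyocyte markers summed to 21920 CPM in cKO replicate 1 and 24110 to 27170 CPM in the other 3 cKO libraries. The 7 markers of epicardium and fibroblasts summed to 3388 CPM there and 2534 to 3190 CPM in the other 3. Their part in the members' level was not tested. Over all libraries these non-muscle markers summed to 2534 to 3388 CPM in cKO and 2855 to 3468 CPM in control, and 0 of the 7 were called. Macrophage markers summed to 77.7 to 88.4 CPM in cKO and 65.6 to 67.6 CPM in control (1 of 6 called, higher in cKO), and red cell markers to 2453 to 2694 CPM in cKO and 1981 to 3735 CPM in control (0 of 8 called). Smooth muscle markers summed to 1024 to 1581 CPM in cKO and 831.9 to 1013 CPM in control (0 of 3 called), so their sums did not overlap. Most of that sum was Acta2, with means of 1099 CPM in cKO and 808 CPM in control, and Tagln was also higher in cKO (log2 0.64). Myh11 went the other way at a very low level (means of 1.06 CPM in cKO and 1.53 CPM in control, log2 -0.53). Atrial markers summed to 1224 to 1457 CPM in cKO and 1179 to 1349 CPM in control (0 of 4 called), and endothelial markers to 1104 to 1146 CPM in cKO and 1050 to 1125 CPM in control (0 of 5 called).

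**Figure D5:**
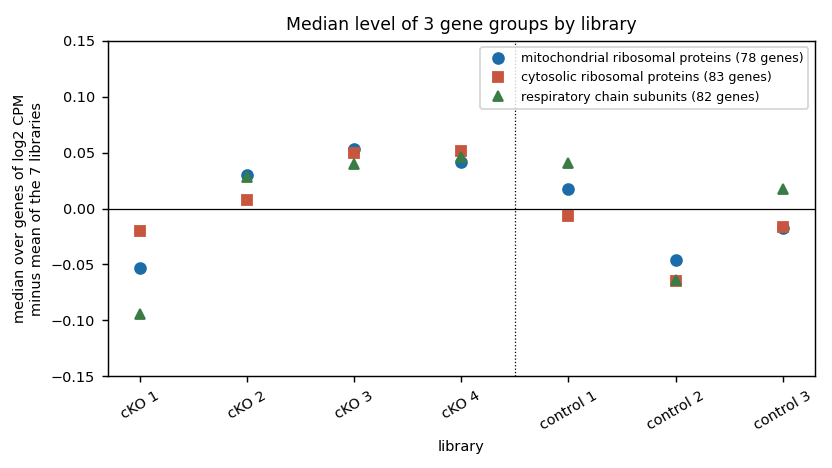
Median over genes of log2 CPM minus the mean of the 7 libraries, for the 78 mitochondrial ribosomal protein genes, 83 genes with cytosolic ribosomal protein symbols and 82 respiratory chain subunits, by library. All 3 groups are low in cKO replicate 1 and in control replicate 2 and above 0 in cKO replicates 2 to 4.

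Set beside the most similar gene groups, the members had a median between theirs. Genes taken by a cytosolic ribosomal protein symbol had a median log2 fold change of 0.05 (70 of 83 positive). They include paralogues such as Rps27l, Rpl7l1 and Rpl22l1, and Rps19bp1, which encodes a binding protein. In this list edgeR called 2, both paralogues, Rps27l (0.24, adjusted p = 0.0342) and Rpl7l1 (0.18, adjusted p = 0.0363). DESeq2 called 4 (these 2, Rps21 and Rpl22l1) and limma-voom 2. Respiratory chain subunits had a median of 0.01 (47 of 82 positive) and 0 called by edgeR, DESeq2 or limma-voom, with 5 at an unadjusted p under 0.05. No test of the differences between these groups was made.

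The remaining proteins of the mitochondrial ribosome carry other symbols, and 5 were measured. Ptcd3, a pentatricopeptide protein of the small subunit, had 112, 125, 127 and 119 CPM in cKO and 102, 102 and 109 CPM in control. All 4 cKO libraries lay above all controls (log2 0.21, SE 0.047, adjusted p = 0.0687 by edgeR and 0.0046 by DESeq2). Chchd1 (0.11), the GTP-binding Dap3 (0.06), Gadd45gip1 (0.07) and Aurkaip1 (-0.001) had adjusted p from 0.449 to 0.995 by edgeR, and none of the 5 was called by edgeR or limma-voom.

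Factors that build and serve this ribosome were also not called. Of 26 assembly factors 0 were called by edgeR, DESeq2 or limma-voom, 1 (3.85%) had an unadjusted p under 0.05 and 8 were positive, with a median of -0.02. That gene was Mterf4, which works with the methyltransferase Nsun4 on the large subunit (-0.14, SE 0.061, adjusted p = 0.277 by edgeR), followed by the ribosome-binding factor Rbfa (0.13, SE 0.063) and the rRNA methyltransferase Mrm2 (-0.15, SE 0.094). Of 16 translation factors 0 were called by any of the 3 tools and 3 (18.8%, against 17.9% of all genes) had an unadjusted p under 0.05, with a median of -0.04. These were the elongation factor EF-Ts gene Tsfm (0.13, SE 0.042), the membrane insertase Oxa1l (-0.10, SE 0.035) and the recycling factor Gfm2 (0.10, SE 0.043), with adjusted p of 0.155, 0.189 and 0.268 by edgeR.

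Among 21 genes for mitochondrial transcription and its regulators, 0 were called by the 3 tools and 3 (14.3%, against 17.9% of all genes) had an unadjusted p under 0.05, with a median of -0.02. Yy1 averaged 101 ± 0.412 CPM in cKO and 93.0 ± 1.98 CPM in control (SD, n = 4 and 3), with all cKO libraries above all controls (log2 0.11, SE 0.030, adjusted p = 0.0999 by edgeR). The nuclear receptor Esrrb had -0.27 (SE 0.091, adjusted p = 0.172) and Ppargc1a, the coactivator PGC-1alpha that drives mitochondrial gene expression, had -0.18 (SE 0.068, adjusted p = 0.201). Nrf1 itself had -0.08 (SE 0.044, adjusted p = 0.402 by edgeR).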

How the data were processed

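RNA of whole ventricle was sequenced after a directional library kit, per the labels' protocols. Per the submitters' processing notes, which give neither role nor order, the tools were STAR 2.4.2a and HTSeq 0.6.1 and the build mm10. The authors deposited estimated counts per gene for 15358 genes. Of these values 30.3% were not whole, and all were rounded. Columns were matched to samples by the code in the titles. The last column (1 not used) equalled the row sum in 15358 genes (tolerance 1e-06), so control replicate 4 was not analysed here. Mitochondrially encoded genes were not analysed here (0 in the table).

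Genes were filtered with filterByExpr (minimum count 10; 14887 kept), scaled by TMM and tested with edgeR 4.0.16 (R 4.3.3), cKO over control, adjusted over all genes at 0.05. The step was tested on simulated data. SEs derive from the F statistic. DESeq2 1.42.0, limma-voom 3.58.1, other scalings, no filter, a replicate block, the F code in the titles, Y-linked expression and left-out libraries were alternatives. Members, lists and tests were chosen with earlier results of these data known. Named were genes by smallest p, size, level, non-overlap and known role. Promoters are from RefSeq.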

Additional observations from a re-analysis of the deposited data

Results flagged for a closer look

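The summed level of the 51 large-subunit genes had 1 library far from the others of its group: cKO replicate 1 lay at 1989 CPM, against 2129, 2156 and 2139 CPM in cKO replicates 2 to 4. Its gap to the nearest of the other cKO libraries was 0.839 of the group's whole range, above Dixon's 95% critical value for 4 libraries. The 3 controls lay at 2121, 2023 and 2048 CPM. It was 1 of 39 values examined in this way, and chance flags about 1 in 20.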

How the results depend on the processing

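The count of members called stayed at 0 in 16 of 17 alternatives and was 1 (Mrps14) with DESeq2. The count over all genes was 629 with DESeq2, 20 within the F169 libraries, 20 with Y-linked expression as a term, 17 without the Xist-expressing cKO libraries, and 28 to 133 with 1 library left out. The F191 libraries hold 1 per group and allow no test. The causes of these shifts were not tested. Medians over all members, the large and the small subunit moved by less than 1 SD between libraries in all 17. Of the 35 named members, 23 kept their sign throughout. Lemd2 was called and lower in all 17.

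Same-numbered libraries did not deviate together (r = 0.0362, -0.106 and -0.0141 for numbers 1 to 3), and 0 members and 13 genes were called with the replicate number as a block (median over members 0.0199). No cKO or control library correlated best with its own number.

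The lowest member count was 455, where counting error is comparable to the median coefficient of variation between libraries (4.45% in cKO and 3.74% in control), so depth adds to the width of the intervals. Its share was not separated from that of the spread between libraries.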
